A study of Mus musculus with 7 samples.

Results

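The immunoglobulin constant genes and Jchain were followed in neuron-enriched preparations of the dorsal root ganglia of mice, where the cell bodies of sensory neurons lie, after injury of the sciatic nerve. The 10 genes were matched by symbol in a table of 54309 genes: the heavy-chain constant genes Ighm, Ighd, Igha, Ighg1, Ighg2b, Ighg2c and Ighg3, the light-chain constant genes Igkc and Iglc2, and Jchain. Per the labels, all 7 samples came from male C57bl/6 mice aged 6 to 8 weeks. The 4 ZT20 samples came from mice injured at Zeitgeber time 20, hours counted from lights on, and the 3 ZT8 samples from mice injured at Zeitgeber time 8. The lumbar ganglia were taken 72 h after injury, dissociated with enzymes, and enriched for neurons on a gradient of albumin. The labels give no genotype beyond the strain, no uninjured group and no number of animals in a sample. They do not say whether the samples came from separate animals, so any spread between them may be partly technical.

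Antibodies are made of paired heavy and light chains, each with a variable part that binds antigen and a constant part that sets the class. B cells begin with Ighm and Ighd, which are made from the same primary transcript by alternative splicing, and switch by deletion of DNA to an IgG subclass, IgE or IgA. Plasma cells, the antibody-secreting descendants of B cells, hold very large amounts of these transcripts, so a few cells can supply most of the immunoglobulin RNA of a tissue. Jchain is a small protein that joins IgM pentamers and IgA dimers and is made by plasma cells of every class. Mice of the C57BL/6 strain carry Ighg2c where some other strains carry Ighg2a.

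The members were chosen because Ighg1 was far higher at ZT8 than at ZT20. The levels of all members in that comparison are therefore given as a description, and no p-value of a member is read as evidence. Values are in TPM, the relative abundance of transcripts, a scale that divides by transcript length, so levels of different genes can be compared. In bulk tissue, a difference in the number of antibody-making cells and a difference in RNA per cell cannot be told apart. Sequencing depth is unknown, since every sample sums to the same TPM.

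The library names follow a different scheme in each group, numbers at ZT20 and letters at ZT8, so a difference in library handling and the injury time cannot be told apart. Several libraries stood apart or went against their labels. The 4 Y-linked genes of the check (Uty, Kdm5d, Eif2s3y and Ddx3y) summed to 0.00868 to 63.6 TPM at ZT20 and to 61.1 to 84.6 TPM at ZT8. ZT20 replicates 3 and 4, although labelled male, had Ddx3y and Eif2s3y listed at 0 and Xist, the transcript of the inactive X chromosome, at 2.21 and 2.30 TPM. ZT20 replicate 2 held both Y-linked transcripts and Xist, the latter at 1.08 TPM. ZT8 replicate 2 had 18297 genes above 0 TPM, against 22541 to 25238 in the other samples. The 9 neuron markers summed to 12834 to 20481 TPM in every sample, and the lowest sum was that of ZT8 replicate 2. The 5 markers of satellite glia, the cells that wrap the neurons, summed to 7457 to 9114 TPM at ZT20 and to 12745 to 15447 TPM at ZT8, without overlap. Limma called 3 of these 5, Apoe and Fabp7 among them, all lower at ZT20 (3.61% of all genes tested were), 1 without ZT20 replicate 3 and 0 without a filter. Most of the sum was Apoe, at 6261 to 7615 and 10623 to 13557 TPM, and Kcnj10, a potassium channel of these cells, overlapped between the groups with a log2 difference of 0.21. Limma called 12.8% of all genes tested higher at ZT20, and of the 9 neuron markers 1, Nefh, a neurofilament of large neurons. Nefh was higher at ZT20 (649 ± 21.7 TPM, SD, n = 4) than at ZT8 (261 ± 87.5 TPM, SD, n = 3). The part of this difference in the member levels was not tested.

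The IgG subclasses differ most in the hinge, the flexible stretch between the antigen-binding arms and the stem of the antibody. The hinge exon of each subclass is shown because the report turns on telling Ighg1 from Ighg2c, and because reads of related genes can only be separated where the sequences differ. Each is exon 2 on the minus strand of chromosome 12 in GRCm38, read from GENCODE M21 transcripts of the secreted form. Capitals mark the in-frame cysteine codons TGT and TGC. Cysteines form the disulfide bridges between antibody chains.
Ighg1 hinge, chr12:113329844-113329882: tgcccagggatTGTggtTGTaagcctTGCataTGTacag
Ighg2b hinge, chr12:113307261-113307326: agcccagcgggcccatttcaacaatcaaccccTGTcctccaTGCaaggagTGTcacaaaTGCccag
Ighg2c hinge, chr12:113288263-113288325: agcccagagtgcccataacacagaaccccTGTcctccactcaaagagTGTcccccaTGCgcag
Ighg3 hinge, chr12:113360529-113360576: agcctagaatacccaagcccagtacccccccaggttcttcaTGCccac

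The Ighg1 hinge was the shortest, at 39 bases, with 4 cysteine codons. The hinges of Ighg2b (66 bases) and Ighg2c (63 bases) had 4 and 3 such codons, and that of Ighg3 (48 bases) had 1. In a global alignment the Ighg1 hinge was identical to the Ighg2c hinge at 39.7% of aligned positions, whereas the Ighg2b and Ighg2c hinges were identical at 77.3%. Over the whole coding part of the secreted form, Ighg1 and Ighg2c were 75.5% identical and Ighg2b and Ighg2c 85.7%.

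How far the members can be told apart was measured by cutting their GENCODE M21 transcripts into words of 31 bases and looking for each word in all 141767 transcripts of that release, on both strands. Ighm, Igha and Igkc shared 0 words with another gene. Ighg1 shared 1.72% of its words, 43 of them with Ighg2b. Ighg2c shared 15.0% and Ighg2b 9.29%, and the 2 genes held 186 words in common. Iglc2 shared 19.6%, mostly with Iglc3, to which its coding part was 96.2% identical. The values of Ighg2b, Ighg2c and Iglc2 are therefore less certain than those of Ighg1, Ighm, Igha and Igkc. How the deposited values divided reads between such genes is not given in the sources used here.

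**Figure D1:**
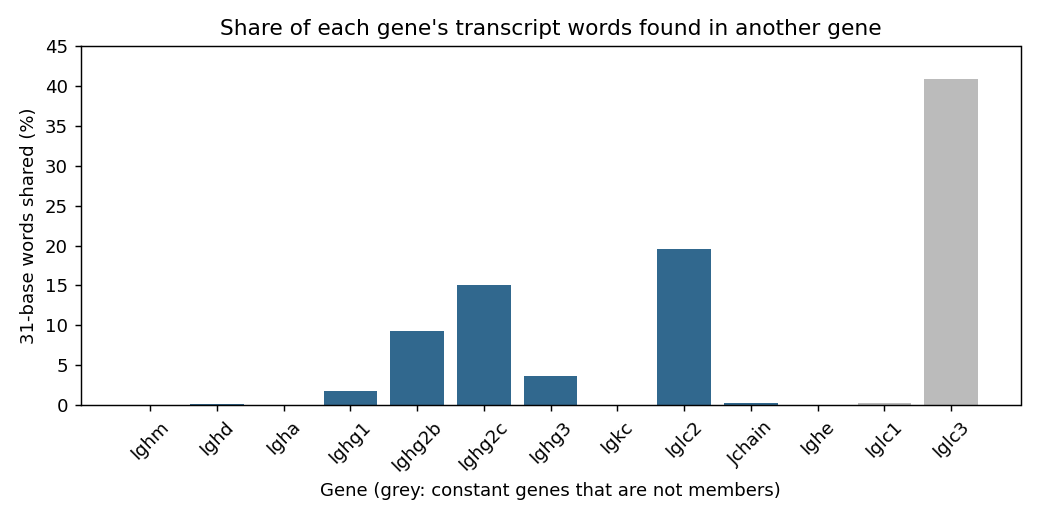
Percentage of the 31-base words in each gene's transcripts (vertical axis) that also occur in a transcript of another gene, for the 10 members (blue) and 3 other constant genes (grey). Iglc2 (19.6%) and Ighg2c (15.0%) share the most among the members, and Ighg1 shares 1.72%.

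Summed over the 10 members, immunoglobulin constant and Jchain transcripts stood at 319, 3465, 2873 and 179 TPM across ZT20 replicates 1 to 4. The sums were 13415, 4057 and 6869 TPM in the ZT8 samples. All ZT8 samples thus lay above all ZT20 samples, but the lowest ZT8 sum was only 1.17 times the highest ZT20 sum. The ZT20 samples fell far apart, with replicates 2 and 3 high and replicates 1 and 4 low. As a share of all transcripts the members made up 0.0179% to 0.347% at ZT20 and 0.406% to 1.3% at ZT8.

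The mean level reached 1 TPM for 9 of the 10 members, which entered the fit across 14800 genes. For the background only, the count of members at a limma adjusted p-value under 0.05 was 1 of these 9 (Ighg1, lower at ZT20), which the choice of members had already used. Over all genes tested 16.4% were called, 3.61% lower and 12.8% higher at ZT20. The count of 1 member was 0 with a pseudocount of 0.1, without a filter, with the replicate number as a block, without ZT20 replicates 3 and 4 together, and with ZT20 replicate 1, ZT20 replicate 4, ZT8 replicate 1 or ZT8 replicate 3 left out. It was 2 without ZT20 replicate 2. No overlap between the groups was seen for 3 of the 9 members (Ighg1, Igkc and Jchain), against 33.2% of all genes tested and 8.72% that were higher at ZT8. Because the members were picked from this comparison, nothing is read from these counts. On the log2(TPM + 1) scale the difference, ZT20 minus ZT8, was negative for 7 and positive for 2 of the 9, with a median of −1.59, beside a median of 0.23 over all genes tested.

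**Figure D2:**
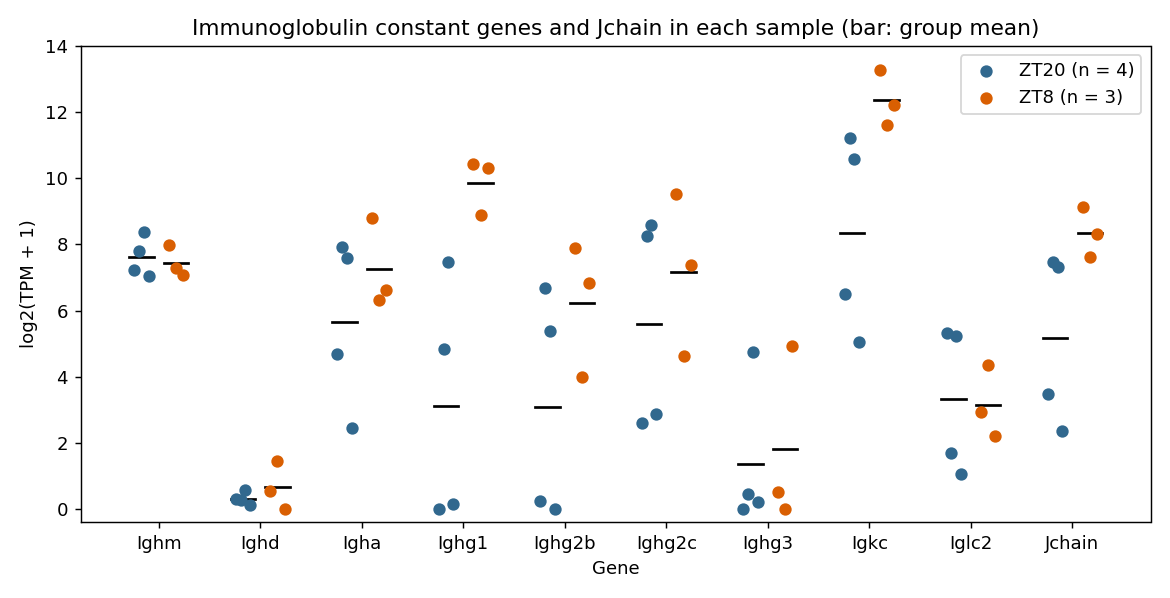
Level of each member in each sample as log2(TPM + 1) on the vertical axis, with ZT20 samples (n = 4) in blue, ZT8 samples (n = 3) in orange and bars at the group means. Ighg1, Igkc and Jchain show no overlap between the groups, and Ighm lies in a narrow band in all 7 samples.

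Ighm (ENSMUSG00000076617) encodes the constant part of IgM, the first class a B cell makes. It was at 149.8, 220, 330 and 130 TPM across ZT20 replicates 1 to 4 and at 252, 155 and 134 TPM in ZT8 replicates 1 to 3. The groups overlapped, and the highest sample was 2.53 times the lowest. Igkc, in comparison, spanned a range of 307-fold over the same samples and Jchain one of 134-fold. The log2 difference of Ighm was 0.16, and its sign turned to −0.09 under median-ratio scaling and also when ZT20 replicate 3 was left out.

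Ighd (ENSMUSG00000104213), the constant gene of IgD, which naive B cells carry beside IgM, was near the floor of the table. It was at 0.0856 to 0.477 TPM at ZT20 and at 0 to 1.73 TPM at ZT8, and 1 of the 7 samples was above 1 TPM. The ratio of Ighd to Ighm was between 0 and 0.0112. Ighd did not reach the mean needed to enter the fit.

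Ighg1 (ENSMUSG00000076614) encodes the constant part of IgG1. It was listed at 0 in ZT20 replicate 1 and was at 27.5, 176 and 0.111 TPM in the other 3. In ZT8 replicates 1 to 3 it was at 1371, 473 and 1262 TPM. The lowest ZT8 sample was 2.69 times the highest ZT20 sample, so the groups did not overlap. The mean was 50.8 ± 84.2 TPM at ZT20 (SD, n = 4) and 1035 ± 490 TPM at ZT8 (SD, n = 3), with a log2 difference of −6.76. It ranged from −8.21 to −5.72 when each sample was left out in turn, and was −7.45 without ZT20 replicates 3 and 4.

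Ighg2c (ENSMUSG00000076612), the subclass of C57BL/6 mice that binds activating Fc receptors strongly, did not separate the groups. It was at 5.07, 305, 383 and 6.39 TPM across ZT20 replicates 1 to 4 and at 737, 23.4 and 165 TPM in ZT8 replicates 1 to 3. ZT20 replicates 2 and 3 were above ZT8 replicates 2 and 3. The log2 difference of −1.59 became −0.41 to −2.87 when single samples were left out. Without ZT8 replicate 2, the library with the fewest genes above 0, it was −2.87.

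Ighg2b (ENSMUSG00000076613) was at 0.183, 102, 40.6 and 0 TPM across ZT20 replicates 1 to 4 and at 238, 15.0 and 113 TPM in ZT8 replicates 1 to 3. The groups overlapped, with ZT8 replicate 2 below ZT20 replicates 2 and 3. The log2 difference was −3.16, and −4.37 to −2.14 with single samples left out. Ighg3 (ENSMUSG00000076615), a subclass typical of responses to polysaccharides, was above 1 TPM in 1 sample of each group, ZT20 replicate 3 (25.7 TPM) and ZT8 replicate 3 (29.2 TPM). It lay between 0 and 0.433 TPM in the other 5 samples. Its log2 difference of −0.46 therefore rested on single libraries, and was 1.10 without ZT8 replicate 3.

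Igha (ENSMUSG00000095079) encodes the constant part of IgA, the class of mucosal secretions. It was at 24.7, 240.2, 191 and 4.41 TPM across ZT20 replicates 1 to 4 and at 441, 78.4 and 98.4 TPM in ZT8 replicates 1 to 3. The groups overlapped, with ZT20 replicates 2 and 3 above ZT8 replicates 2 and 3. Within ZT20, replicates 2 and 3 were high and replicates 1 and 4 low, as for Ighg1, Ighg2b and Ighg2c but not Ighg3. The log2 difference of Igha was −1.59, and −2.34 to −0.52 with single samples left out.

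Igkc (ENSMUSG00000076609), the kappa light-chain constant gene, had the highest level of the members in both groups by median. It was at 89.4, 2391, 1532 and 32.0 TPM across ZT20 replicates 1 to 4 and at 9809, 3096 and 4748 TPM in ZT8 replicates 1 to 3. The groups did not overlap, though the lowest ZT8 sample was only 1.29 times the highest ZT20 sample. The log2 difference was −4.02, and −4.98 to −2.92 with single samples left out. In ZT20 replicates 1 and 4 Ighm was higher than Igkc, at 149.8 and 130 TPM.

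Iglc2 (ENSMUSG00000076937), a lambda light-chain constant gene, followed none of these patterns. It was at 39.3, 2.25, 36.7 and 1.07 TPM across ZT20 replicates 1 to 4 and at 6.63, 19.4 and 3.58 TPM in ZT8 replicates 1 to 3. The groups overlapped, and ZT20 replicate 1, low in Igkc, was the highest sample. Its log2 difference of 0.17 changed sign under median-ratio scaling (−0.04) and with ZT20 replicate 1 left out (−0.50). A second lambda constant gene that is not a member, Iglc1, was more abundant in all samples but ZT20 replicate 4, at 115, 111, 238 and 0.906 TPM across ZT20 replicates 1 to 4 and 59.3, 218 and 293 TPM in ZT8 replicates 1 to 3.

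Jchain (ENSMUSG00000067149) was at 10.2, 176, 157 and 4.18 TPM across ZT20 replicates 1 to 4. Its level at ZT8 was 560, 195 and 317 TPM. The groups did not overlap, and the lowest ZT8 sample was 1.11 times the highest ZT20 sample. The log2 difference was −3.19. It ranged from −3.96 without ZT20 replicate 2 to −2.26 without ZT20 replicate 4, and was −2.87 without ZT20 replicates 3 and 4. Over the 7 samples Pearson's r of the log2 level with the log2 sum of the other 9 members was 0.996 for Jchain, 0.975 for Igkc, 0.956 for Ighg2b, 0.944 for Ighg1, 0.901 for Igha and 0.837 for Ighg2c. It was 0.481 for Ighm, 0.357 for Ighg3, 0.286 for Ighd and −0.0037 for Iglc2. These are descriptions over the same libraries.

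Ordered by their median at ZT8, the members ran from Igkc (4748 TPM) through Ighg1 (1262), Jchain (317), Ighg2c (165), Ighm (155), Ighg2b (113) and Igha (98.4) to Iglc2 (6.63), Ighd (0.463) and Ighg3 (0.433). At ZT20 the order was Igkc (811 TPM), Ighm (185), Ighg2c (155), Igha (108), Jchain (83.8), Ighg2b (20.4), Iglc2 (19.5), Ighg1 (13.8), Ighg3 (0.271) and Ighd (0.222). At ZT8 the range of Igkc lay above that of Ighg1, that of Igha above that of Iglc2, and that of Iglc2 above that of Ighd. Every other neighbouring pair at ZT8, Ighg1 and Jchain included, and every neighbouring pair at ZT20 overlapped in range. Ighg1 was second at ZT8 and eighth at ZT20.

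Isotype composition was taken as each gene's share of the summed TPM of the 7 heavy-chain constant members. This sum was 180, 896, 1147 and 142 TPM in the ZT20 samples and 3039, 746 and 1801 TPM in the ZT8 samples. Ighg1 made up 0%, 3.07%, 15.3% and 0.0784% of heavy-chain transcripts in the ZT20 samples and 45.1%, 63.3% and 70.1% in the ZT8 samples. It was thus the leading heavy chain in all 3 ZT8 samples and in 0 of the 4 ZT20 samples. With any 1 sample left out, the median Ighg1 share was 0.0784% to 3.07% at ZT20 and 54.2% to 66.7% at ZT8.

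Among the ZT20 samples there were 2 compositions. In replicates 1 and 4, which had the lowest heavy-chain sums, Ighm made up 83.2% and 92.1%. In replicates 2 and 3, Ighg2c was the leading heavy chain with 34% and 33.4%, followed by Igha with 26.8% and Ighm with 24.6% in replicate 2, and by Ighm with 28.8% and Igha with 16.6% in replicate 3. At ZT8 the share of Ighm was 8.28%, 20.8% and 7.43%, below that in every ZT20 sample. Igha made up 14.5%, 10.5% and 5.46% there. These shares divide by a sum that holds Ighg1, from which the members were chosen, so a high Ighg1 level lowers the other shares. The level of Ighm itself overlapped between the groups, with a log2 difference of 0.16.

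**Figure D3:**
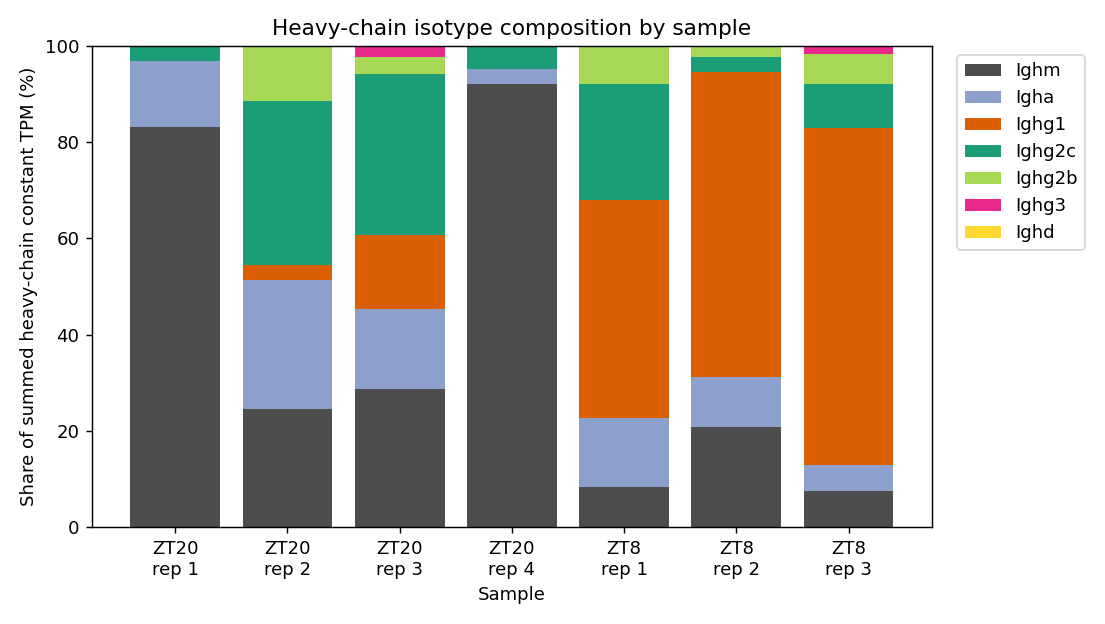
Share of each of the 7 heavy-chain constant genes in their summed TPM (vertical axis, percent) for each sample, as stacked bars. Ighg1 leads in the 3 ZT8 samples with 45.1% to 70.1%, Ighm leads in ZT20 replicates 1 and 4, and Ighg2c leads in ZT20 replicates 2 and 3.

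Within the 4 IgG subclasses Ighg2c led in the ZT20 samples and Ighg1 in the ZT8 samples. These shares and the ratio below all include Ighg1, from which the members were chosen. The level of Ighg2c itself overlapped, at 5.07 to 383 TPM at ZT20 and 23.4 to 737 TPM at ZT8. Ighg2c made up 96.5%, 70.0%, 61.3% and 95.8% of IgG transcripts in the ZT20 samples and 31.4%, 4.59% and 10.5% in the ZT8 samples. Ighg1 made up 0% to 28.1% at ZT20 and 58.4% to 92.5% at ZT8. The ratio of Ighg1 to Ighg2c was 0, 0.0904, 0.458 and 0.0174 in the ZT20 samples and 1.86, 20.2 and 7.64 in the ZT8 samples. In ZT20 replicates 1 and 4 these shares rest on IgG sums of only 5.26 and 6.67 TPM.

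The ZT20 and ZT8 samples nearest in member sum were ZT20 replicate 2, at 3465 TPM, and ZT8 replicate 2, at 4057 TPM. Their heavy-chain sums were 896 and 746 TPM. Ighg1 was at 27.5 TPM in the former and 473 TPM in the latter, whereas Ighg2c was at 305 and 23.4 TPM and Ighg2b at 102 and 15.0 TPM. These are the values of 2 libraries, picked for their sums, and ZT8 replicate 2 is the library with the fewest genes above 0.

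Light chains were mostly kappa. Igkc made up 69.5%, 99.9%, 97.7% and 96.8% of Igkc and Iglc2 in the ZT20 samples and 99.9%, 99.4% and 99.9% in the ZT8 samples. When Iglc1, Iglc3 and Iglc4 were counted as well, the kappa share was 36.6%, 95.4%, 84.7% and 89.7% at ZT20 and 99.2%, 92.7% and 94.1% at ZT8. ZT20 replicate 1 was the sample in which lambda transcripts outnumbered kappa, with 155 TPM of lambda against 89.4 TPM of Igkc.

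The ratio of light-chain to heavy-chain members was 0.715, 2.67, 1.37 and 0.234 in the ZT20 samples, and 3.23, 4.17 and 2.64 in the ZT8 samples, all above 1. The 2 ratios below 1 belonged to ZT20 replicates 1 and 4, in which Ighm was 1.68 and 4.07 times Igkc. With all listed constant genes counted, the ratio of ZT20 replicate 1 was 1.36. In the other 5 samples Ighm was 0.0257 to 0.215 times Igkc. The ratio of Jchain to Igkc was 0.115, 0.0737, 0.103 and 0.131 at ZT20 and 0.0571, 0.0630 and 0.0667 at ZT8, so that Jchain was lower relative to kappa in every ZT8 sample although its own level was higher there.

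Each complete heavy-chain transcript joins 1 variable to 1 constant part, and the summed variable segments can be set beside the members on the same TPM scale. The 183 Ighv segments summed to 68.7, 723, 960.2 and 9.45 TPM across ZT20 replicates 1 to 4 and to 2859, 579 and 1714 TPM in ZT8 replicates 1 to 3. Relative to the class-switched members (IgG and IgA) the Ighv sum was 2.29, 1.07, 1.18 and 0.852 at ZT20 and 1.03, 0.983 and 1.03 at ZT8, near 1 in all samples but ZT20 replicate 1. Relative to all heavy-chain members it was 0.382, 0.807, 0.837 and 0.0668 at ZT20 and 0.941, 0.776 and 0.952 at ZT8. The Igkv sum was 0.786 to 1.00 times Igkc at ZT20 and 1.01 to 1.06 times at ZT8.

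The heavy-chain members exceeded the Ighv sum by 111, 173, 186 and 132 TPM in the ZT20 samples and by 180, 167 and 87.0 TPM in the ZT8 samples. This excess varied 2.14-fold over the samples while the class-switched sum ran from 11.1 to 2787 TPM. In ZT20 replicate 4 Ighm was at 130 TPM beside an Ighv sum of 9.45 TPM. The Ighv sum of that library was thus far below its Ighm level. Which cells or transcripts the Ighm values stand for was not tested.

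**Figure D4:**
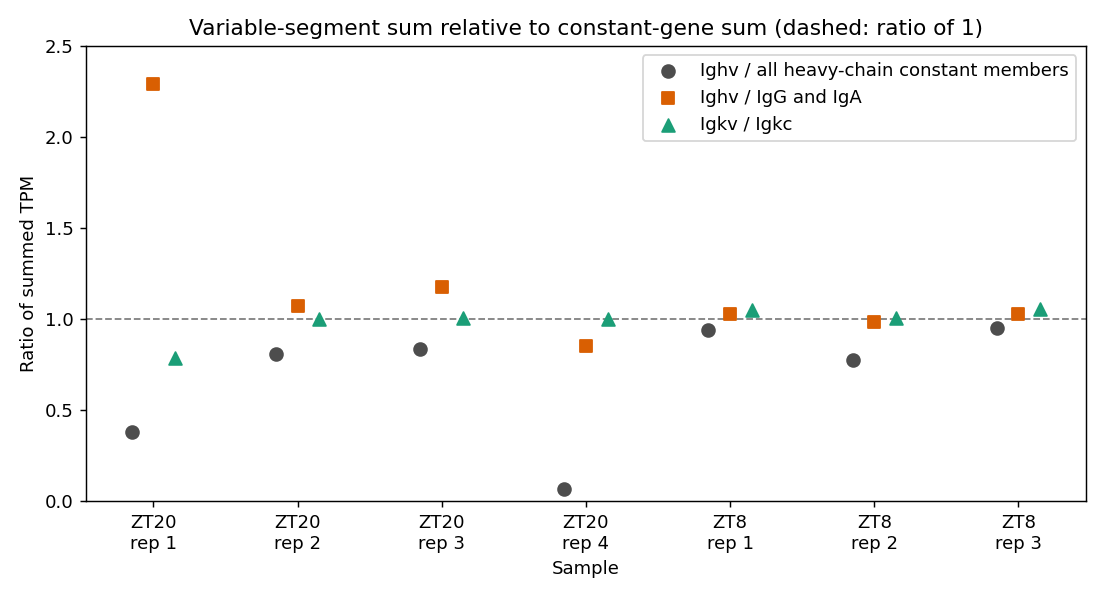
Ratio of summed variable segments to summed constant genes (vertical axis, ratio of TPM sums) in each sample, for Ighv over all heavy-chain members (circles), Ighv over IgG and IgA (squares) and Igkv over Igkc (triangles). Ighv over all heavy-chain members is 0.382 and 0.0668 in ZT20 replicates 1 and 4, where Ighm leads.

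Genes of the cells that make antibodies were read out beside the members, from lists chosen with earlier results of these data known. Mzb1, an endoplasmic reticulum protein of B cells and plasma cells that helps assemble antibodies, was at 1.03, 9.28, 8.51 and 0 TPM across ZT20 replicates 1 to 4. Its level was 44.2, 17.9 and 23.9 TPM in ZT8 replicates 1 to 3, so the groups did not overlap. The log2 difference of Mzb1 was −2.88 with an SE of 0.81 (limma adjusted p = 0.0432, adjusted over all genes). It was the 1 of 6 tested plasma cell markers called, lower at ZT20, against 3.61% of all genes called in that direction and 16.4% in either. The count was 0 under 11 of 16 alternatives, among them leaving out any single sample but ZT20 replicate 2. No call on any list held without ZT20 replicates 3 and 4, where limma called 0 genes in all and 2378 had an unadjusted p-value under 0.05. The median log2 difference of the 6 was −0.19.

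Of the other plasma cell markers, Pou2af1, a transcriptional coactivator of B cells and plasma cells, did not overlap between the groups, at 0.0329 to 1.13 TPM at ZT20 and 1.24 to 1.97 TPM at ZT8. The other 8 overlapped. Of all genes tested 8.72% were higher at ZT8 without overlap, and Pou2af1 was too low to enter the fit. Sdc1, the surface proteoglycan CD138, was at 75.7 to 151 TPM and Xbp1, a regulator of secretion, at 132 to 227 TPM, with overlapping groups. Tnfrsf17, the survival receptor BCMA, was at 0 to 0.836 TPM, and the plasma cell regulators Prdm1 and Irf4 were at 0 to 0.324 and 0 to 0.675 TPM. Tnfrsf17 was listed at 0 in all 3 ZT8 samples. All 10 markers summed to 261 to 351 TPM at ZT20 and 307 to 389 TPM at ZT8, with overlap. Without Sdc1 and Xbp1 the sums were 2.30 to 17.6 and 23.6 to 60.03 TPM, without overlap, and Mzb1 supplied 17.9 to 44.2 TPM of those at ZT8. Without Sdc1, Xbp1 and Mzb1 the other 7 summed to 2.3 to 9.12 TPM at ZT20 and 5.78 to 15.8 TPM at ZT8, with overlap.

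The summed B cell markers did not separate the groups. The 12 markers summed to 7.48, 13.3, 15.0 and 12.4 TPM across ZT20 replicates 1 to 4 and to 17.1, 14.8 and 10.96 TPM in ZT8 replicates 1 to 3. Limma called 0 of the 4 tested, and 0 had an unadjusted p-value under 0.05, with a median log2 difference of −0.23. Cd79a and Cd79b, which carry the signal of the B cell receptor, were at 2.16 to 6.82 and 1.06 to 3.89 TPM. Ms4a1, a defining surface marker, stayed at or below 1.09 TPM. Of the 12, Pax5 and Blk did not overlap between the groups, beside 33.2% of all genes tested, and were higher at ZT20, at levels too low to enter the fit (up to 0.368 and 0.213 TPM at ZT20, and up to 0 and 0.0374 TPM at ZT8). The B cell sum varied 2.29-fold over the samples and Ighm 2.53-fold, while the member sum varied 75.0-fold. Such a range was not particular to B cells or Ighm. The macrophage markers varied 2.70-fold, the satellite glia markers 2.07-fold and the T cell markers 7.65-fold.

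Markers of other blood cells also varied with the libraries. The 8 T cell markers summed to 12.3, 29.2, 46.1 and 9.46 TPM across ZT20 replicates 1 to 4 and to 72.4, 32.5 and 22.0 TPM in ZT8 replicates 1 to 3. The T cell sum was thus lowest in the 2 ZT20 samples with the lowest member sums. Limma called 0 of 7 tested T cell markers, and 0 had an unadjusted p-value under 0.05. The 5 neutrophil markers summed to 703 to 4376 TPM at ZT20 and 94.0 to 937 TPM at ZT8, highest in ZT20 replicate 1. Limma called 1 of these 5, Ngp, higher at ZT20, as 12.8% of all genes tested were. It called 0 under median-ratio scaling, without a filter, without the intensity trend, and with any single sample but ZT8 replicate 2 left out. The 5 erythroid markers summed to 2369 to 6679 and 951 to 9534 TPM, and limma called 0 of them, with 0 at an unadjusted p-value under 0.05. Without ZT8 replicate 2, which had the highest erythroid sum, limma called 4 of the 5 erythroid and 3 of the 5 neutrophil markers. All of these were higher at ZT20, as 2375 of the 14821 genes tested in that fit were. The 8 macrophage markers summed to 242 to 568 and 210 to 484 TPM. Of 7 tested, 1 was called, Mrc1, higher at ZT20, beside 12.8% of all genes tested. That count was 0 without a filter, with a filter at 5 TPM, with the replicate block, and with ZT20 replicate 1, 3 or 4 or ZT8 replicate 3 left out. The part of blood carried along with the ganglia in the member levels was not tested.

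**Figure D5:**
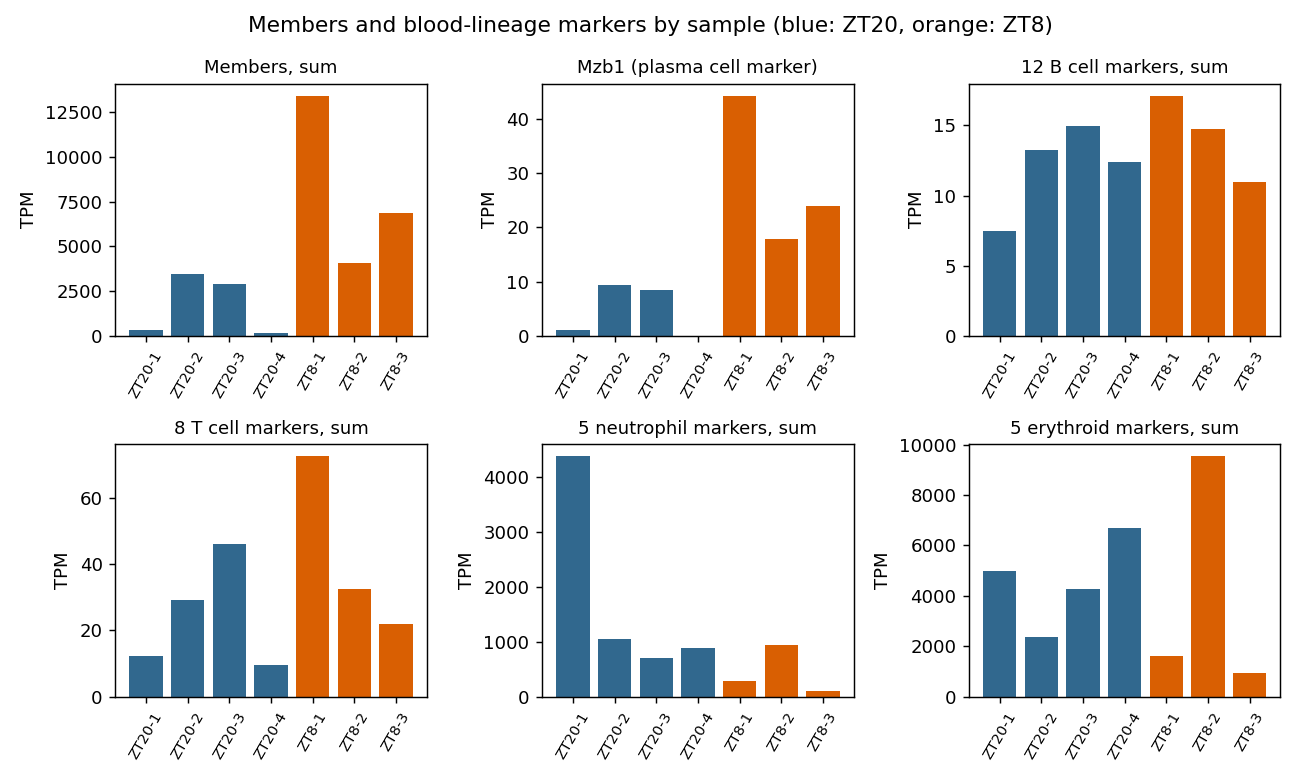
Summed TPM (vertical axes, starting at 0) of the 10 members and of marker lists for B cells, T cells, neutrophils and erythroid cells, and the level of Mzb1, in each ZT20 sample (blue) and ZT8 sample (orange). Mzb1 follows the member sum across the 7 samples, and the B cell sum stays between 7.48 and 17.1 TPM.

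The secretion machinery serves antibody release in plasma cells and secretion in all other cells. Of its 15 tested genes, 7 had an unadjusted p-value under 0.05. Limma called 2 of the 15, both lower at ZT20, beside 3.61% of all genes called in that direction and 16.4% in either. They were Sec11c (log2 difference −0.92, limma adjusted p = 0.0203) and Spcs1 (−0.64, limma adjusted p = 0.0368), subunits of the signal peptidase complex. The median log2 difference was −0.36. The count was 7 under median-ratio scaling, which moved the median of all genes from 0.23 to 0.014, and 5 without ZT8 replicate 2. It was 0 without a filter and with ZT20 replicate 1, 3 or 4 left out, and 1 without the intensity trend. Both genes were highest in ZT8 replicate 2, at 759 and 808 TPM, the sample with the lowest member sum of its group. The chaperone Hspa5 was at 633 to 840.0 TPM in all samples, and the chaperone Hsp90b1 was higher at ZT20 without overlap (164 to 185 against 85.8 to 164 TPM, limma adjusted p = 0.198). In the other direction, Sec11c, Spcs1, Ssr4, Dnajb9 and Selenos were higher at ZT8 without overlap, as 8.72% of all genes tested were. The sum of the 15 genes was 2249 to 2579 TPM at ZT20 and 2756 to 3259 TPM at ZT8.

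Of 7 tested receptors and carriers of immunoglobulin, limma called 0, and 2 had an unadjusted p-value under 0.05. The median log2 difference was −0.14. Fcgrt, the neonatal Fc receptor that recycles IgG, was at 31.4 to 40.7 TPM at ZT20 and 43.2 to 58.8 TPM at ZT8 (limma adjusted p = 0.0631). Fcgr3, an activating IgG receptor of macrophages, was at 19.9 to 39.9 and 21.3 to 46.7 TPM, and its partner Fcer1g was at 37.2 to 75.0 and 29.7 to 75.5 TPM. Pigr, which carries polymeric IgA across epithelia, was listed at 0 in all 7 samples. Of the 3 subunits of C1q, the complement protein that binds IgM and IgG, limma called C1qa (log2 difference −1.17, adjusted p = 0.0253), lower at ZT20, as 3.61% of all genes tested were. C1qb did not overlap between the groups either, at 42.3 to 61.7 and 65.0 to 161 TPM (limma adjusted p = 0.0887). Of all genes tested 8.72% were higher at ZT8 without overlap. C1qc overlapped, with a log2 difference of −0.21 (limma adjusted p = 0.697). The count of 1 was 2 under median-ratio scaling, at a threshold of 0.10 and without ZT8 replicate 2, and 0 without a filter and with ZT20 replicate 1, 3 or 4 left out.

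Of 4 tested genes of class switching and the germinal centre limma called 0, and 1 had an unadjusted p-value under 0.05. This was Bcl6, a repressor of germinal centre B cells, at 1.40 to 1.86 TPM at ZT20 and 2.83 to 8.71 TPM at ZT8 (limma adjusted p = 0.0783). Bcl6 was lower at ZT20, whereas the log2 difference of the other 3 was positive and the median of the 4 was 0.49. The count called was 1 at a threshold of 0.10 and without ZT8 replicate 2. Of 8 tested genes of plasma cell homing and survival limma called 0, with 0 at an unadjusted p-value under 0.05, and 1 of 11 without a filter. Of the 2 other tested constant genes 1 was called (Iglc3, lower at ZT20 as 3.61% of all genes tested were, at 0.453 to 2.34 and 3.47 to 11.5 TPM). That count was 0 with a pseudocount of 0.1, without a filter, with the replicate block, without the intensity trend, and with any single sample but ZT8 replicate 3 left out, and Iglc3 shared 40.8% of its words with other genes. Ighe, the constant gene of IgE, was above 1 TPM in 1 sample, ZT8 replicate 3 (2.99 TPM).

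Among 14664 tested genes that are not immunoglobulin genes or Jchain, those whose log2 level was most like the log2 member sum over the 7 samples were ranked by Pearson's r, as a description. Mzb1 came first with r = 0.992. Ifit1 (0.978), H2-Q7 (0.973), AW112010 (0.973), Tgtp1 (0.972), Gbp4 (0.970), Ifi47 (0.970), Psmb8 (0.968), Tgtp2 (0.965) and BC023105 (0.961) followed. Ifi47 was at 7.33, 32.9, 32.3 and 7.39 TPM across ZT20 replicates 1 to 4 and at 177, 46.8 and 93.5 TPM in ZT8 replicates 1 to 3. Psmb8 was at 55.3, 120, 108 and 41.1 TPM in the ZT20 samples and 373, 166 and 194 TPM in the ZT8 samples. Both were low in ZT20 replicates 1 and 4 and highest in ZT8 replicate 1, as the member sum was.

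Jchain was the only member with a promoter in the RefSeq table used. Its window of 250 bases before to 50 bases after the start site is shown because Jchain followed the member sum most closely. It lies at chr5:88527848-88528147 in GRCm38.p6 on the minus strand, and capitals mark the match to a searched motif.
Jchain promoter: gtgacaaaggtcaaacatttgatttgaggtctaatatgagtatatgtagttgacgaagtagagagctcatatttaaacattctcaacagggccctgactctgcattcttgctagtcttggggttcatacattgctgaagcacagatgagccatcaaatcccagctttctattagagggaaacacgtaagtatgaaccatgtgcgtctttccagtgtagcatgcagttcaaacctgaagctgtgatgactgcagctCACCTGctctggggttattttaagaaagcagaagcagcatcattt

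Searched on both strands, the window held 1 match to the E-protein box CAGGTG, as its complement CACCTG, with its first base at position 6 of the transcript. This motif occurs in 20.2% of 32851 promoter windows of the same length. The clock E-box CACGTG, the D-box TTATGTAA and the octamer ATGCAAAT had 0 matches in the Jchain window, and occur in 7.15%, 0.938% and 1.74% of all windows. A match or its absence describes these letters only.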

How the data were processed

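The authors deposited 1 table of TPM for 54309 genes, with 1 column per sample, and 0 columns were left unused. Per the submitters' processing notes, FastQC 0.11.9, Trim Galore 0.6.6, Salmon 1.6.0, DESeq2 1.34.0 and the build GRCm39 were named; their roles and the annotation release are not given in the sources used here. Sequences came from GENCODE M21 and RefSeq (GRCm38), matched by symbol for all 10 members and for 1 promoter. TPM values were analysed as log2(TPM + 1). Genes averaging 1 TPM or more were fitted with limma 3.58.1 (intensity trend, R 4.3.3) over all 7 samples without covariates, two-sided, with Benjamini-Hochberg adjustment over 14800 genes; the procedure was tested on simulated data. Differences are ZT20 minus ZT8. Shares are ratios of summed TPM. The members and lists were chosen with earlier results of these data known. Named were all members, list genes that were called or the most abundant of their list, defining markers, and the 10 genes most like the member sum. Prdm1, Irf4, Tnfrsf17, Pou2af1, Pax5, Blk, Bcl6, Kcnj10, Hsp90b1, Ssr4, Dnajb9, Selenos, C1qb, C1qc, Ms4a1 and Pigr were added after their values were seen. Some list genes are not reported here. Alternatives were median-ratio scaling, a pseudocount of 0.1, no filter or one at 5 TPM, removal of immunoglobulin genes with rescaling, the replicate number as a block, no intensity trend, an adjusted p-value threshold of 0.10, leaving out each sample, and leaving out ZT20 replicates 3 and 4. Alignments used Biopython 1.88, tables pandas 2.3.3 and figures matplotlib 3.10.9.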

Additional observations from a re-analysis of the deposited data

Results flagged for a closer look

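In the ZT20 group, 30 reported results were examined for an outlying sample: the gap between it and the next sample, as a share of the whole range, had to pass Dixon's critical value for 4 samples. Such a sample was found for 5 of them. Chance would give about 1.5 for normally distributed values. The gaps were taken on TPM, shares and ratios without a log2 scale, so the 5 cannot be judged against that number. Ighg1 was at 176 TPM in replicate 3 against 0 to 27.5 TPM elsewhere in the group (share 0.843). Ighg3 was at 25.7 TPM in replicate 3 against 0 to 0.376 TPM elsewhere (share 0.985). The kappa share of Igkc and Iglc2 was 69.5% in replicate 1 and 96.8% to 99.9% in the others (share 0.897). The ratio of Igkv segments to Igkc was 0.786 in replicate 1 and 1.00 in the others (share 0.985). The neutrophil markers summed to 4376 TPM in replicate 1 and to 703 to 1054 TPM in the others (share 0.904).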

How the results depend on the processing

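Sequencing depth is unknown, so the counting error of low members such as Ighd, Ighg3 and, in ZT20 replicates 1 and 4, every IgG subclass cannot be given. The cause of each change given here was not tested. The number of genes called was 2433 (1899 higher and 534 lower at ZT20). It was 1178 (978 and 200) without a filter, 1174 (891 and 283) with the replicate block, and 4079 (3098 and 981) at a threshold of 0.10. The split was 1095 higher and 1265 lower under median-ratio scaling, and 332 were lower without the intensity trend. Without ZT20 replicates 3 and 4 limma called 0 genes (0 higher, 0 lower), with 2378 at an unadjusted p-value under 0.05. Leaving out each sample gave 723 to 3047 genes, 620 to 2375 higher and 103 to 672 lower; 723 was without ZT20 replicate 3, 855 without ZT20 replicate 4 and 1132 without ZT20 replicate 1. The plasma cell marker count of 1 was 0 with a pseudocount of 0.1, without a filter, with the block, without the intensity trend and without ZT20 replicates 3 and 4, and 0 to 1 with single samples left out; leaving out any sample but ZT20 replicate 2 gave 0. The secretion count of 2 was 0 without a filter, 7 under median-ratio scaling, 1 without the trend, 6 at 0.10, 0 without ZT20 replicates 3 and 4, and 0 to 5 with single samples left out: 5 without ZT8 replicate 2 and 0 without ZT20 replicate 1, 3 or 4. The receptor count of 0 was 1 under median-ratio scaling and at 0.10, and 0 to 1 with single samples left out, being 1 without ZT8 replicate 2 or 3. The B cell count was 0 under all 16 alternatives, of which the filter at 5 TPM left 0 markers to test. Of the 9 members fitted, Igha, Ighg1, Ighg2b, Ighg2c, Igkc and Jchain kept a negative difference under all 11 alternatives run for them. The Ighm difference of 0.16 was −0.09 under median-ratio scaling, and −0.09 to 0.43 with single samples left out (−0.09 and −0.02 without ZT20 replicate 3 and ZT8 replicate 3). That of Ighg3 was −1.58 to 1.10, the latter without ZT8 replicate 3. That of Iglc2 was −0.04 under median-ratio scaling, and −0.50 to 0.93 with single samples left out (−0.50, −0.47 and −0.31 without ZT20 replicate 1, ZT20 replicate 3 and ZT8 replicate 3). With all listed constant genes the median kappa share at ZT8 was 94.1% instead of 99.9%. Same-numbered samples of the groups correlated in their deviations from the group means at −0.0141, 0.153 and 0.0830, so the numbers were not taken to pair the samples; with the replicate block the log2 difference of Ighg1 was −5.77.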
